A study of Mus musculus with 16 samples.

Results

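Within the chow-fed mice of a liver RNA-seq study, 8 libraries carry titles from 2 runs of numbers, L314 to L316 (called L31x here) and L324 to L328 (L32x). The comparison is between these 2 title series, with genotype as a term, so its members are 8 of the 16 libraries of the study: 3 libraries of L31x and 5 of L32x. The members were taken by title alone. The labels do not say what the numbers stand for, and nothing in them gives the series a day, a cage or a sequencing run.

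All the mice were females aged 27 weeks carrying the floxed oestrogen receptor alpha allele (Esr1fl/fl), on a mixed CD-1;129P2 background. Mutants (Esr1Nkx2-1Cre) also carried a Cre recombinase under Nkx2-1 control, a gene of the ventral hypothalamus, thyroid and lung and not of the liver. The chow libraries are 4 controls (L314, L316, L324 and L328) and 4 mutants (L315, L325, L326 and L327). L31x therefore holds 2 controls and 1 mutant, and L32x holds 2 controls and 3 mutants, so the single L31x mutant, L315, carries the whole mutant side of that series. The remaining 8 libraries came from mice kept on a high-fat diet (HFD, 17 weeks) and are titled L231 to L234 (1 mutant, L231, and 3 controls) and L338 to L342 (3 mutants and 1 control, L342), so within a genotype each HFD series contrast has a single library on one side. Nothing in the labels says that the libraries came from separate animals, and p-values measure the spread between these samples only.

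Values are the deposited gene-level signal on the TPM scale (transcript abundance relative to the library total), adjusted between libraries by size factors and written here as adjusted TPM. Differences are L32x minus L31x in log2(value + 1), given with the standard error (SE) of a limma fit of all 16 libraries with 4 group means and a series term for each diet. The test covered 12704 of the 15544 listed genes, those that reached 1 adjusted TPM in no fewer than 4 libraries. Such differences understate changes of genes with low values, and sequencing depth is unknown.

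The liver carries out daily programmes of feeding and fasting metabolism, and its transcripts follow a cell-autonomous clock. CLOCK and BMAL1 (Arntl) activate Per, Cry and Rev-erb genes through E-box sequences, the products of these genes repress that activation in turn, and PAR bZIP factors such as DBP pass the rhythm on through D-box sequences. The folding capacity of the endoplasmic reticulum (ER) is set by a separate response, in which ATF6 and XBP1 act on chaperone genes through the ER stress response element (ERSE). Clock transcripts vary over the day, and the labels do not give the hour at which these livers were taken.

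The libraries were liver: the sum of 9 hepatocyte markers lay between 82915 and 115454 adjusted TPM in all 8, with Alb from 46702 to 77274. Spearman correlations between chow libraries had a median of 0.9713 over the 13 pairs within a series and 0.9639 over the 15 pairs between series. They ran from 0.9237 to 0.975 within a series and from 0.9177 to 0.972 between series, and both lowest pairs held L325. Within a series the median was 0.9722 for pairs of the same genotype and 0.9637 for pairs of different genotype. Between series these medians were 0.9639 and 0.9588. Of the summed variance of log2 values on chow, 13.7% went with series once genotype was in the fit, 22.2% with genotype once series was in the fit, and 64.6% was residual. The residual has 5 degrees of freedom and the series term a single one. The series share was thus close to the residual share per degree of freedom. Over all 8 libraries the marker sums of the other liver cell types overlapped between the series, and for Kupffer cells L315 made the overlap. Kupffer cell markers summed to 214.6, 842 and 323.6 in L31x and to 451, 967, 337, 509 and 652 in L32x, so that both L31x controls lay below every L32x library. Endothelial markers summed to 83.6 to 156 in L31x and 110.5 to 144 in L32x.

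Libraries L315 and L325, both mutants and one from each series, stood apart. Their neutrophil markers summed to 2655 and 5849 adjusted TPM against 4.44 to 100.1 in the other 6 libraries. S100a8, a calprotectin subunit of neutrophils, was 1079 in L315 and 2693 in L325. The part of these cells in the series differences was not tested, and counts are given below without both libraries. L315 is the only L31x mutant, so wherever it is left out the series difference comes from the controls alone. In bulk tissue, fewer cells of a type and less RNA per cell cannot be told apart. The libraries also differed in GC content bias. The correlation across genes between a library's deviation from the gene mean and transcript GC content was 0.0186, 0.121 and -0.0533 in L31x and ran from -0.172 to -0.0692 in L32x, with no overlap. Across genes, the series difference itself had r = -0.205 with GC content and 0.0763 with log2 transcript length. Counts with this gradient removed are given below.

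**Figure D1:**
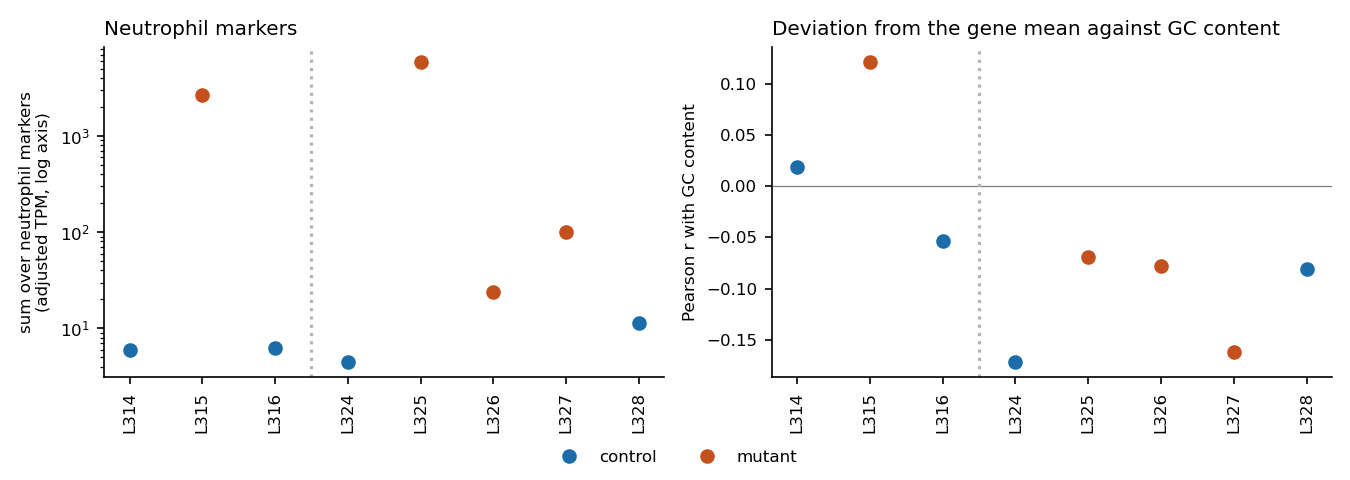
Sum of the neutrophil markers in each chow library (left, adjusted TPM, log axis) and Pearson correlation across genes between the library's deviation from the gene mean and GC content (right). Blue points are controls, orange points mutants, and the dotted line separates L31x from L32x. L315 and L325 lie at 2655 and 5849 on the left, and every L32x library lies below every L31x library on the right.

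No gene passed the threshold. At an adjusted p under 0.05 (limma, Benjamini-Hochberg over 12704 genes), 0 genes (0%) differed between the series, and the smallest adjusted p was 0.163, shared by 46 genes. Unadjusted p-values under 0.05 were found for 1478 genes (11.6%), 730 higher in L32x (5.75%) and 748 lower (5.89%). The 5 L32x values lay wholly above the 3 L31x values in 417 genes (3.28%) and wholly below in 442 (3.48%). Of these, 5 and 13 had a log2 difference of at least 1 in size. The median SE of a difference was 0.16. Without L315 and L325 the unadjusted counts were 893 higher and 708 lower, again with 0 at the adjusted threshold. That difference is between controls only, because no L31x mutant is left. With single libraries left out, 556 to 907 genes were higher and 536 to 986 lower. With each library scaled to the same total the split became 457 higher and 1103 lower, and the median difference over all genes shifted from 0.003 to -0.048. With per-library trends on GC content and length removed, 639 genes were higher and 693 lower. The values that follow are therefore descriptions of genes and lists, none of them past the adjusted threshold.

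Among genes with a difference of at least 1 and no overlap, 3 named genes were higher in L32x. Ttc23 (chr7:67647410-67762912, GRCm38), whose protein belongs to cilia, was 31.96, 24.96 and 20.96 in L314, L315 and L316 and 43.8, 35.7, 61.5, 69.2 and 61.8 in L324 to L328. The difference was 1.02 ± 0.29 (SE, unadjusted p = 0.00384, adjusted p = 0.227), with 0.98 between the controls alone and 1.07 between the mutants. Il1rn (chr2:24336853-24351494), the secreted antagonist of the interleukin-1 receptor, was 6.11, 7.11 and 2.35 in L31x and 9.8, 25.9, 8.85, 12.2 and 11.8 in L32x. L325, the library with the highest neutrophil markers, had the top value, and the difference was 1.11 ± 0.38 (SE, unadjusted p = 0.0116, adjusted p = 0.281). L316 was lowest, and the series did not overlap. Ankrd40cl (chr11:94281873-94286253) was 0.984, 0.906 and 0.742 in L31x and 2.9, 3.02, 6.78, 1.5 and 2.99 in L32x, a low gene with a difference of 1.12 ± 0.38 (SE, unadjusted p = 0.0108, adjusted p = 0.28).

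In the other direction 8 named genes were lower in L32x. Tubb2a (chr13:34074274-34078007), a beta-tubulin, was 89.03, 119.7 and 189 in L314, L315 and L316 and 50.8, 55.1, 38.05, 49.1 and 18.2 in L324 to L328. All 5 L32x values were under the lowest L31x value, and the means were 133 ± 51.3 (SD, n = 3) and 42.2 ± 14.9 (SD, n = 5). The difference was -1.75 ± 0.39 (SE, unadjusted p = 0.000554, adjusted p = 0.163), -2.05 in controls and -1.33 in mutants. The alpha-tubulin Tuba1c, chosen after its values were seen, had the same order: 104, 105 and 118 in L31x and 65.6, 74.6, 53.6, 57.3 and 41.2 in L32x, a difference of -0.95 ± 0.19 (SE, unadjusted p = 0.000292, adjusted p = 0.163). The pair of tubulin genes lies on different chromosomes, 13 and 15.

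Hdhd3 (chr4:62499008-62503467), of the haloacid dehalogenase-like family, was 71.7, 89.9 and 95.5 in L31x and 40.6, 55.1, 40.9, 37.1 and 34.1 in L32x. The lowest L31x value was above the highest L32x value, and the difference was -1.09 ± 0.22 (SE, unadjusted p = 0.000252, adjusted p = 0.163). Lrfn3 (chr7:30355489-30362772), a leucine-rich repeat adhesion protein, was 5.46, 8.15 and 7.6 in L31x and 3.16, 5.04, 2.81, 3.24 and 1.32 in L32x, a difference of -1.15 ± 0.23 (SE, unadjusted p = 0.000228, adjusted p = 0.163). Apol7b (chr15:77422209-77447492), an apolipoprotein L gene, was 9.53, 7.25 and 7.05 in L31x and 1.3, 1.07, 2.82, 3.01 and 6.04 in L32x and had a difference of -1.28 ± 0.38 (SE, unadjusted p = 0.00534, adjusted p = 0.257). The L32x spread was wide for Apol7b, with L328 near the L31x values.

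Slc45a3 (chr1:131962967-131982969), of the sugar transporter family SLC45, was 14.7, 25.6 and 27.4 in L31x and 13.3, 14.3, 10.1, 12.2 and 6.44 in L32x, and Tjp3 (chr10:81273207-81291581), the tight junction protein ZO-3, was 17.1, 16.7 and 25.2 in L31x and 11.1, 13.3, 9.19, 8.38 and 4.32 in L32x. In both genes L324 and L325 stood closest to L31x and L328 furthest. Their differences were -1.03 ± 0.25 (SE, unadjusted p = 0.00129, adjusted p = 0.181) and -1.11 ± 0.33 (SE, unadjusted p = 0.00447, adjusted p = 0.243). Manf and Creld2, which complete the set, are described with the ER genes.

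The genes with the smallest p-values were chosen after their values were seen, and a choice by p favours differences with a small SE. Of the 20 smallest, 14 were lower in L32x, with Lrfn3 and Hdhd3 among them. Rab36 (chr10:75037058-75054748), a small GTPase, was 17.1, 12.8 and 14.4 in L314, L315 and L316 and 6.21, 7.74, 9.25, 8.61 and 5.32 in L324 to L328. Every L32x value was below every L31x value, and the difference was -0.98 ± 0.16 (SE, unadjusted p = 3.98e-05, adjusted p = 0.163), though -1.31 in controls and -0.54 in mutants. Pnkd was 73.7, 84.04 and 89.7 in L31x and 56.95, 50.7, 61.8, 61.7 and 50.4 in L32x, a difference of -0.57 ± 0.10 (SE, unadjusted p = 5.01e-05, adjusted p = 0.163). Tfpt, a subunit of the INO80 chromatin remodelling complex, was 15.7, 12.9 and 8.83 in L31x and 5.97, 6.88, 5.91, 6.61 and 6.04 in L32x. The 5 L32x values of Tfpt lay within a band of 1 adjusted TPM, and the difference was -0.88 ± 0.15 (SE, unadjusted p = 5.42e-05, adjusted p = 0.163). Without L316 this gene passed the adjusted threshold (-1.06, adjusted p = 0.013). Snrpa, the U1 snRNP protein A, was 37.1 to 42.8 in L31x and 27.3 to 30.5 in L32x, a difference of -0.45 ± 0.08.

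Other genes with small p-values, also chosen after their values were seen, lay on both sides. Rb1cc1 (FIP200), a subunit of the kinase complex that starts autophagy, was 15.1, 13.0 and 13.9 in L31x and 19.97, 23.1, 19.4, 27.2 and 20.8 in L32x, a difference of 0.60 ± 0.11 (SE, unadjusted p = 0.000138, adjusted p = 0.163). Flcn, folliculin, was 18.2, 16.7 and 11.9 in L31x and 28.6, 21.6, 28.7, 35.96 and 30.7 in L32x, a difference of 0.86 ± 0.20 (SE, unadjusted p = 0.000853, adjusted p = 0.18). The L31x and L32x values did not overlap in either gene. Ralgapa2, a subunit of a Ral GTPase-activating complex, was 6.5 to 7.51 in L31x and 13.7 to 18.3 in L32x, a difference of 1.0 ± 0.23. Gda, guanine deaminase, Rab20 and Itprid2 were higher in L32x by 0.53 ± 0.10, 0.58 ± 0.11 and 0.47 ± 0.09, and Pm20d2 lower by -0.73 ± 0.12, each without overlap.

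**Figure D2:**
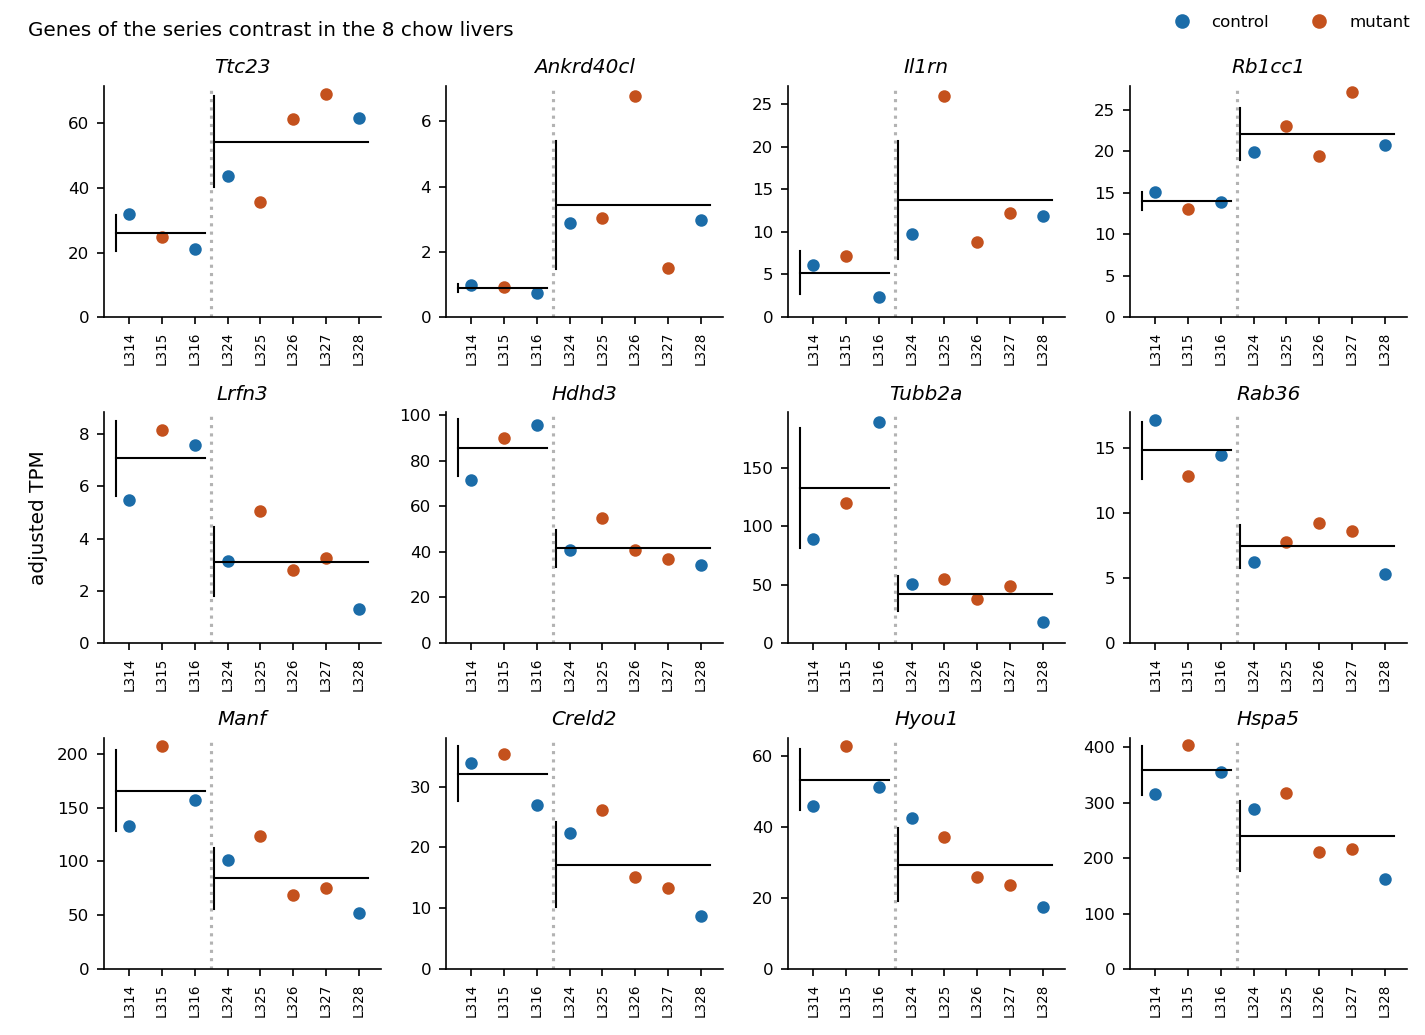
Adjusted TPM of 12 genes in the 8 chow livers, with the mean (line) and SD (bar) of L31x and of L32x without regard to genotype. Blue points are controls and orange points mutants. The higher genes Ttc23, Ankrd40cl, Il1rn and Rb1cc1 fill the top row, and all 5 L32x points lie below the L31x points in the panels of Lrfn3, Hdhd3, Tubb2a, Rab36, Manf, Creld2 and Hyou1, while Hspa5 overlaps by L325.

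Clock genes made up the largest share of any list. Of 17 core clock genes tested, 8 were higher and 3 lower in L32x at an unadjusted p under 0.05, against 5.75% and 5.89% over all genes, and of 20 clock output genes 9 were higher and 1 lower. None passed the adjusted threshold, and the median difference was 0.45 in the core list and 0.55 in the output list against 0.00 over all genes. The separation between libraries did not follow the titles fully: 1 core clock gene and 0 output genes were without overlap. These counts were near the share over all genes, of which 3.28% were higher and 3.48% lower without overlap. The 2 upstream sequences below hold the motifs named above and are shown first, since the genes' values are read against each other below. They are the 250 bases before the annotated start (RefSeq, GRCm38.p6), 5′ to 3′ on the gene's strand. Capitals mark each E-box CACGTG in the Ciart sequence (chr3:95882229-95882478, minus strand) and each D-box TTATGTAA in the Per3 sequence (chr4:151044666-151044915, minus strand).
Ciart: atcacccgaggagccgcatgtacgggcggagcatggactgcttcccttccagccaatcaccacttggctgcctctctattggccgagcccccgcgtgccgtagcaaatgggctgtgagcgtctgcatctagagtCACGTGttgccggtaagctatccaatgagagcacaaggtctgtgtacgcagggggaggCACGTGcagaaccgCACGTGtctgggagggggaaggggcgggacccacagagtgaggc
Per3: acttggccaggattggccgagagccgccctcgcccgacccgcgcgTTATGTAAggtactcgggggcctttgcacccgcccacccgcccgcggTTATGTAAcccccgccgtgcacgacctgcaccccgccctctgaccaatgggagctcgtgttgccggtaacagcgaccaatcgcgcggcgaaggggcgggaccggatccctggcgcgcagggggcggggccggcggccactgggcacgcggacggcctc

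Ciart held 3 E-boxes, beginning 116, 58 and 44 bases before the start, and Per3 held 2 D-boxes, beginning 205 and 158 bases before it. Searching both strands, an E-box was found in 4 of the 13 core clock genes and 5 of the 18 clock output genes with a window, and in 6.02% of all 32851 windows of this length. A D-box was found in 1 core and 1 output gene, Per3 and Coq10b, and in 0.819% of windows. List counts are by gene, with a match in any window of the gene, and the shares over all are by window. A match describes the letters only.

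The PAR bZIP gene Dbp, a direct output of the clock, was 90.02, 6.68 and 4.93 in L314, L315 and L316 and 97.2, 16.7, 167, 124 and 219 in L324 to L328. L315 and L316 were lowest, L325 was next, and L314 and L324 were alike although they belong to different series. The difference was 2.90 ± 0.90 (SE, unadjusted p = 0.00656, adjusted p = 0.262), the largest of the output list. Arntl, which encodes BMAL1, ran the other way at 1.71, 10.97 and 13.04 in L314, L315 and L316 and 1.91, 5.61, 0.953, 1.95 and 0.564 in L324 to L328, with L315 and L316 highest and L325 next. Its difference was -1.66 ± 0.53 (SE, unadjusted p = 0.00819, adjusted p = 0.272). The log2 ratio of Dbp to Arntl was 5.07, -0.64 and -1.24 in L314, L315 and L316 and 5.08, 1.42, 6.42, 5.40 and 7.13 in L324 to L328, and 3.93 to 7.73 in the 8 HFD libraries. Thus 3 chow libraries, 2 of L31x and 1 of L32x, lay below every other library of the study.

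L315, L316 and L325 sat at the same extreme in Npas2, Per3 and Bhlhe41. Npas2, a partner of BMAL1, was 0.49, 10.1 and 7.51 in L31x and 0.589, 1.95, 0.0359, 0.314 and 0.119 in L32x, and its difference was -2.01 ± 0.52 (SE, unadjusted p = 0.00189, adjusted p = 0.2). Per3 was 14.9, 3.9 and 4.16 in L31x and 16.95, 5.08, 26.6, 20.96 and 28.7 in L32x, and Bhlhe41, the repressor DEC2, was 0.977, 0.184 and 0.327 in L31x and 1.71, 0.908, 5.61, 3.04 and 7.16 in L32x. Differences were 1.48 ± 0.50 (SE, unadjusted p = 0.0108, adjusted p = 0.28) and 1.58 ± 0.40 (SE, unadjusted p = 0.00176, adjusted p = 0.198). Nr1d2, the nuclear receptor REV-ERB beta, was 40.7, 30.4 and 26.9 in L31x and 54.9, 40.9, 54.9, 51.8 and 64.6 in L32x and was the core gene without overlap, at 0.76 ± 0.19 (SE, unadjusted p = 0.00143, adjusted p = 0.184), though L325 at 40.9 exceeded L314 by little. The repressor Cry1 was 3.83, 5.88 and 7.06 in L31x and 4.002, 3.68, 3.34, 2.26 and 3.36 in L32x, lower in L32x by -0.57 ± 0.18. Ciart, the repressor whose promoter is shown above, was 10.9, 1.8 and 5.27 in L31x and 16.8, 1.49, 19.5, 16.3 and 43.9 in L32x, and overlapped widely at 1.74 ± 0.74 (SE, unadjusted p = 0.0352, adjusted p = 0.382).

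Among outputs, Tef, the PAR bZIP relative of Dbp, was 199, 56.1 and 72.7 in L31x and 222, 70.5, 237, 192 and 284 in L32x, and Hlf, the third of that family, was 27.01, 15.7 and 19.7 in L31x and 26.6, 21.8, 34.8, 35.5 and 30.1 in L32x. The repressor of D-box genes, Nfil3, was 13.3, 27.2 and 26.6 in L31x and 13.8, 21.3, 11.6, 9.14 and 7.46 in L32x. Their differences were 1.19 ± 0.42, 0.54 ± 0.19 and -0.90 ± 0.30. Coq10b, of coenzyme Q function, was 20.6, 10.3 and 8.32 in L31x and 33.5, 14.2, 20.2, 21.4 and 40.4 in L32x and had the smallest p of the list, a difference of 1.14 ± 0.30 (SE, unadjusted p = 0.00228, adjusted p = 0.203). Gys2, the liver glycogen synthase, was 70.3, 38.8 and 33.5 in L31x and 103, 50.04, 95.3, 114 and 130.0 in L32x, a difference of 1.16 ± 0.36 (SE, unadjusted p = 0.00713, adjusted p = 0.263). Usp2, a deubiquitinase, was 2.004 to 6.87 in L31x and 3.12 to 34.4 in L32x, and the mitotic kinase Wee1 0.879 to 4.61 and 1.76 to 11.3. L315 and L316 lay below L314 in all of these output genes but Nfil3, where they lay above it. L314 was close to L324 in Tef, Hlf and Nfil3 and below it in the others.

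The clock counts rested on particular libraries. Without L316 the core list had 2 higher and 3 lower genes and the output list 5 and 0, without L315 they had 3 and 0, and 6 and 0. Without L325 they had 10 and 3, and 11 and 1, and without both L315 and L325 9 and 2, and 10 and 1. Where L315 was left out, the difference came from the controls alone. Removing GC and length trends left 8 and 3, and 10 and 1. Over all 12704 genes, higher and lower counts were 556 and 588 without L316, 585 and 536 without L315 and 907 and 986 without L325. They were 893 and 708 without both L315 and L325, and 639 and 693 with GC and length trends removed.

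**Figure D3:**
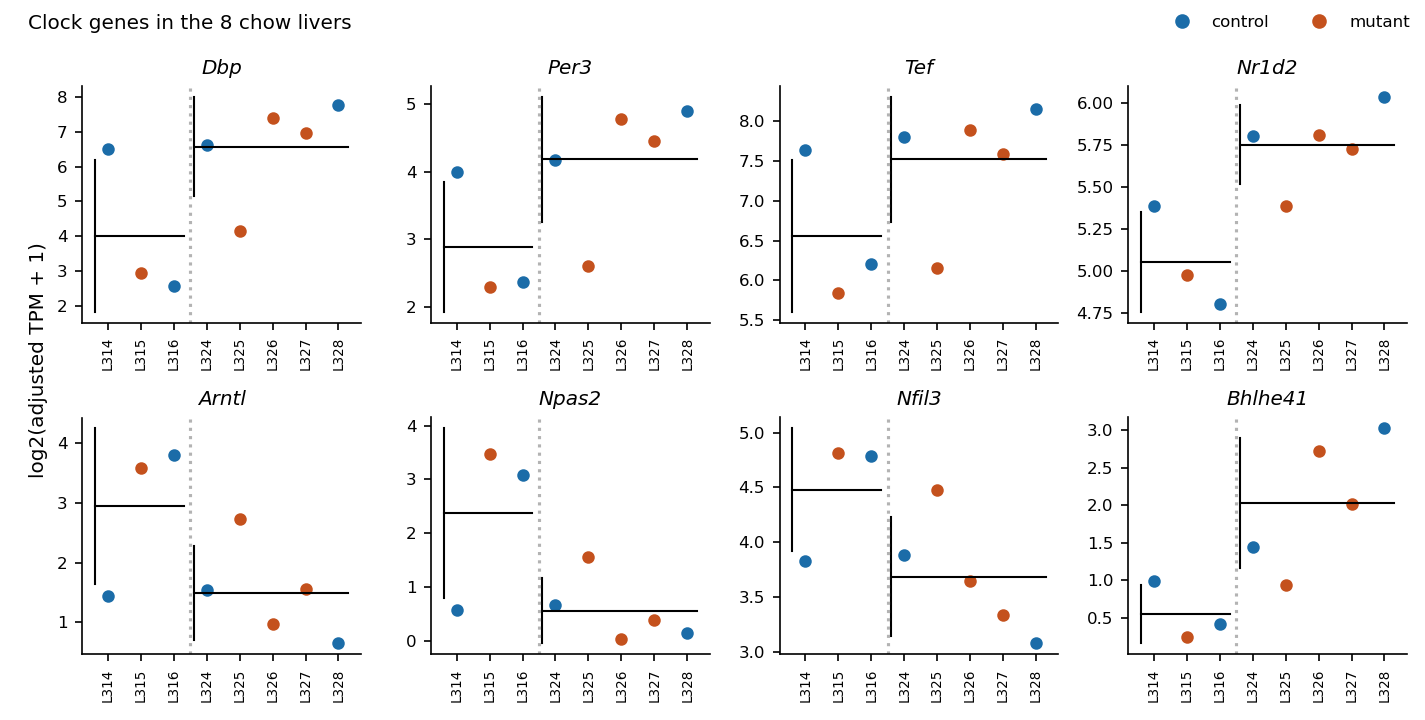
Log2(adjusted TPM + 1) of 8 clock genes in the chow livers, with the mean (line) and SD (bar) of each title series. Blue points are controls and orange points mutants. L315, L316 and, in most panels, L325 share one extreme, low for Dbp, Per3 and Tef and high for Arntl, Npas2 and Nfil3, while L314 lies close to L324 in Dbp, Per3, Tef and Arntl.

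ER folding genes were lower in L32x where they differed. Of 25 ER folding and heat shock genes tested, 0 were higher and 4 lower at an unadjusted p under 0.05 (5.89% of all genes were lower), 3 of them without overlap (3.48% of all genes), and the median difference was -0.09. The upstream 250 bases of 2 of the 4 are shown because each holds an ERSE (CCAAT, 9 bases, CCACG, in either orientation, in capitals), from RefSeq, GRCm38.p6, at chr15:88819396-88819645, plus strand, and chr2:34771840-34772089, plus strand.
Creld2: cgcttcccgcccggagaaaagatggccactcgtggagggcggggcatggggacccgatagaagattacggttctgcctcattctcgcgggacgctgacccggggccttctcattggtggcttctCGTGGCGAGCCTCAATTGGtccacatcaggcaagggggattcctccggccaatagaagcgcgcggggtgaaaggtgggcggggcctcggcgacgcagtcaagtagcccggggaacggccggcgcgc
Hspa5: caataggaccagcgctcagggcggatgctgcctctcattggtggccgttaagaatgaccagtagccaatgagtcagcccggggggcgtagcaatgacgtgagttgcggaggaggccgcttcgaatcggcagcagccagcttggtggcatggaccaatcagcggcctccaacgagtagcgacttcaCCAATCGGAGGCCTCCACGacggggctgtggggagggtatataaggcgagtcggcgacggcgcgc

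The element began 126 bases before the start in Creld2, in reverse orientation, and 65 bases before it in Hspa5. It was found in 7 of the 20 list genes with a window (Calr, Canx, Creld2, Dnajc3, Hsp90b1, Hspa5 and Pdia6), counted by gene, and in 0.113% of all windows, counted by window. The other 5 of the 7 had unadjusted p-values from 0.181 to 0.706, and Manf and Hyou1 were not searched.

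Manf (chr9:106838312-106891979), an ER-resident protein that is secreted under ER stress, was 133, 207 and 158 in L314, L315 and L316 and 101, 124, 68.4, 75.3 and 52.4 in L324 to L328. Every L32x value was below every L31x value, and the means were 166 ± 37.8 (SD, n = 3) and 84.2 ± 28.3 (SD, n = 5). The difference was -1.10 ± 0.26 (SE, unadjusted p = 0.000845, adjusted p = 0.18), -0.98 in controls and -1.26 in mutants. Creld2 (chr15:88819646-88826683), another secreted ER stress protein, was 33.9, 35.4 and 26.98 in L31x and 22.4, 26.2, 15.2, 13.4 and 8.76 in L32x, a difference of -1.02 ± 0.29 (SE, unadjusted p = 0.0042, adjusted p = 0.236). Hyou1, the chaperone GRP170, was 46.01, 62.8 and 51.3 in L31x and 42.7, 37.3, 25.99, 23.7 and 17.5 in L32x, a difference of -0.94 ± 0.29 (SE, unadjusted p = 0.00614, adjusted p = 0.26). Hspa5, the chaperone BiP, was 316.1, 405 and 355 in L31x and 289, 319, 211, 216 and 163 in L32x, where L325 was just above L314, and its difference was -0.67 ± 0.22 (SE, unadjusted p = 0.00935, adjusted p = 0.278). In all 4 genes L328 was lowest and L326 and L327 followed, with L324 and L325 closer to L31x. Without L315 the list had 2 lower genes and without L315 and L325 3, both from the controls alone. Without L328 it had 2 higher and 3 lower. Of all 12704 genes, 536 were lower without L315 and 708 without L315 and L325, and without L328 618 were higher and 596 lower.

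Cholesterol synthesis genes had the lowest median of the metabolic lists, -0.49 over 25 genes, with 0 higher and 4 lower at an unadjusted p under 0.05 (5.89% lower over all genes). Between the HFD title series the median of this list had the opposite sign, at 1.06. Hmgcs1, cytosolic HMG-CoA synthase, was 257, 301 and 487 in L31x and 103, 259, 186, 355 and 134 in L32x, a difference of -1.0 ± 0.45 (SE, unadjusted p = 0.0437, adjusted p = 0.411). L316 was highest and L324 lowest, both controls, and the difference was -1.58 in controls and -0.22 in mutants. Mvk, mevalonate kinase, was 36.6, 50.7 and 81.7 in L31x and 18.3, 37.5, 32.6, 41.4 and 26.6 in L32x, a difference of -0.92 ± 0.32. Srebf2, which encodes the SREBP2 factor for these genes, was 31.4, 33.3 and 40.7 in L31x and 23.995, 30.2, 23.5, 30.1 and 21.3 in L32x and was the list's gene without overlap, at -0.47 ± 0.15 (SE, unadjusted p = 0.0085, adjusted p = 0.274). Hsd17b7 differed by -0.59 ± 0.26. Without L316 or without L324 1 of the 25 genes stayed under 0.05, where 588 and 676 of all 12704 genes were lower.

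Bile acid and sterol export genes were higher where they differed, 5 of 22 with 0 lower, 3 without overlap, and a median of 0.19, where 5.75% of all genes were higher and 3.28% higher without overlap. Nr1h4, the bile acid receptor FXR, was 61.8, 43.96 and 62.9 in L31x and 74.02, 64.8, 80.7, 74.6 and 86.7 in L32x, a difference of 0.51 ± 0.14 (SE, unadjusted p = 0.00259, adjusted p = 0.203). Slco1b2, a hepatic uptake carrier of organic anions, was 472, 367 and 443 in L31x and 565, 543, 559, 519.7 and 531 in L32x, a difference of 0.39 ± 0.12 (SE, unadjusted p = 0.006, adjusted p = 0.258). Cyp39a1, an oxysterol hydroxylase, was 6.6 to 7.4 and 7.73 to 11.5, and the sterol export pair Abcg5 and Abcg8 differed by 0.61 ± 0.26 and 0.68 ± 0.29, with L315 and L316 low in both. Without L315, 0 of the 22 were under 0.05, and without L325 8 were higher and 1 lower. Of all 12704 genes, 585 were higher and 536 lower without L315, and 907 higher and 986 lower without L325.

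Of 24 xenobiotic P450s and receptors, 5 were higher (5.75% over all genes) and 0 lower, all with overlap, and the median was 0.24. Cyp2e1, the ethanol-oxidising P450 of pericentral hepatocytes, was 4467, 1718 and 2753 in L31x and 6039, 2825, 4129.6, 3626 and 4146 in L32x, a difference of 0.73 ± 0.23 (SE, unadjusted p = 0.00794, adjusted p = 0.271). Por, the electron donor of microsomal P450s and also a clock output gene, was 276, 282 and 208 in L31x and 412, 278, 357, 389 and 476 in L32x, a difference of 0.62 ± 0.20 (SE, unadjusted p = 0.01, adjusted p = 0.28). Cyp2a5 was 273 to 438 in L31x and 228 to 935 in L32x, with L325 below all others, and differed by 0.94 ± 0.37. Cyp2c38 and Cyp2c39 differed by 0.41 ± 0.18 and 0.28 ± 0.13. Without L315 1 of these genes was under 0.05, where 585 of all 12704 genes were higher and 536 lower. Of 19 pericentral genes 3 were higher (Cyp2e1, Cyp2a5 and Gulo, at 0.24) and 0 lower, a count that was 0 without L315, and of 20 periportal genes 0 and 0, where Apoc2 had the smallest p (0.0797) at -0.35.

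Urea cycle and amino acid genes held 0 higher and 4 lower of 33, against 5.89% lower over all genes, with a median of -0.09 and none without overlap. Cbs, cystathionine beta-synthase, was 346, 548 and 515 in L31x and 349.5, 371, 317, 336 and 311 in L32x, a difference of -0.50 ± 0.15 (SE, unadjusted p = 0.00472, adjusted p = 0.247). Bhmt, betaine-homocysteine methyltransferase, was 2005, 1728 and 4360.4 in L31x and 984, 1066, 1326, 2145 and 1285 in L32x, a difference of -0.91 ± 0.32 (SE, unadjusted p = 0.0139, adjusted p = 0.293), with L316 far above the rest. Nags, which makes the activator of carbamoyl phosphate synthetase, and the ornithine carrier Slc25a15 differed by -0.32 ± 0.10 and -0.41 ± 0.18. Without L314, 9 of the 33 were lower, where 758 of all 12704 genes were.

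The remaining metabolic lists held 0 to 3 members at an unadjusted p under 0.05 in either direction, where 5.75% of all genes were higher and 5.89% lower. In fatty acid oxidation and PPAR alpha targets (37 genes, 1 higher and 2 lower), the droplet protein gene Plin5 was 28.4, 22.8 and 26.6 in L31x and 15.2, 21.5, 15.5, 21.7 and 8.51 in L32x, lower by -0.78 ± 0.22 without overlap. Ppara itself was higher by 0.60 ± 0.21, Pdk4 lower by -1.12 ± 0.44, and Vnn1 differed by 0.57 (unadjusted p = 0.0518). Without L314 11 of the 37 were higher and with library weights 8, and without L315 or L316 0. Over all 12704 genes the higher counts were 759 without L314, 970 with library weights, 585 without L315 and 556 without L316. In lipogenesis (24 genes, 0 and 1), the acyltransferase gene Agpat2 was 169, 186 and 208 in L31x and 118, 152, 128, 102 and 75.1 in L32x, a difference of -0.81 ± 0.22 (SE, unadjusted p = 0.00251, adjusted p = 0.203), without overlap. Among gluconeogenesis and fasting genes (19 genes, 1 and 0), Trib3 differed by 0.68 (unadjusted p = 0.046). Without L325 5 of these 19 were higher, where 907 of all 12704 genes were. Among glucocorticoid targets and metallothioneins (16 genes, 1 and 1), Mertk and Slc30a10 differed by 0.39 (unadjusted p = 0.0412) and -0.55 (unadjusted p = 0.0428). Among glutathione and Nrf2 targets (23 genes, 0 and 1), Srxn1 differed by -0.42 (unadjusted p = 0.041).

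Of 32 female-biased liver genes 2 were higher and 0 lower, near the 5.75% of all genes that were higher. Of 22 male-biased genes 3 were higher and 0 lower, with Ugt2b1 at 0.31 (unadjusted p = 0.0181), Slco1a1 at 0.80 (unadjusted p = 0.0353) and Keg1 at 0.44 (unadjusted p = 0.0487). Of 20 major urinary protein genes, whose near-identical copies make the assigned values uncertain, 1 was higher, Mup9 at 1.21 (unadjusted p = 0.0347). Without L325 7 of the 20 and 6 of the 22 male-biased genes were higher, and without L315 0 in both lists. Over all 12704 genes the higher counts were 907 without L325 and 585 without L315. Of 18 growth hormone signalling genes 0 differed, and Stat5a had the smallest p, at -0.39 (unadjusted p = 0.0788).

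**Figure D4:**
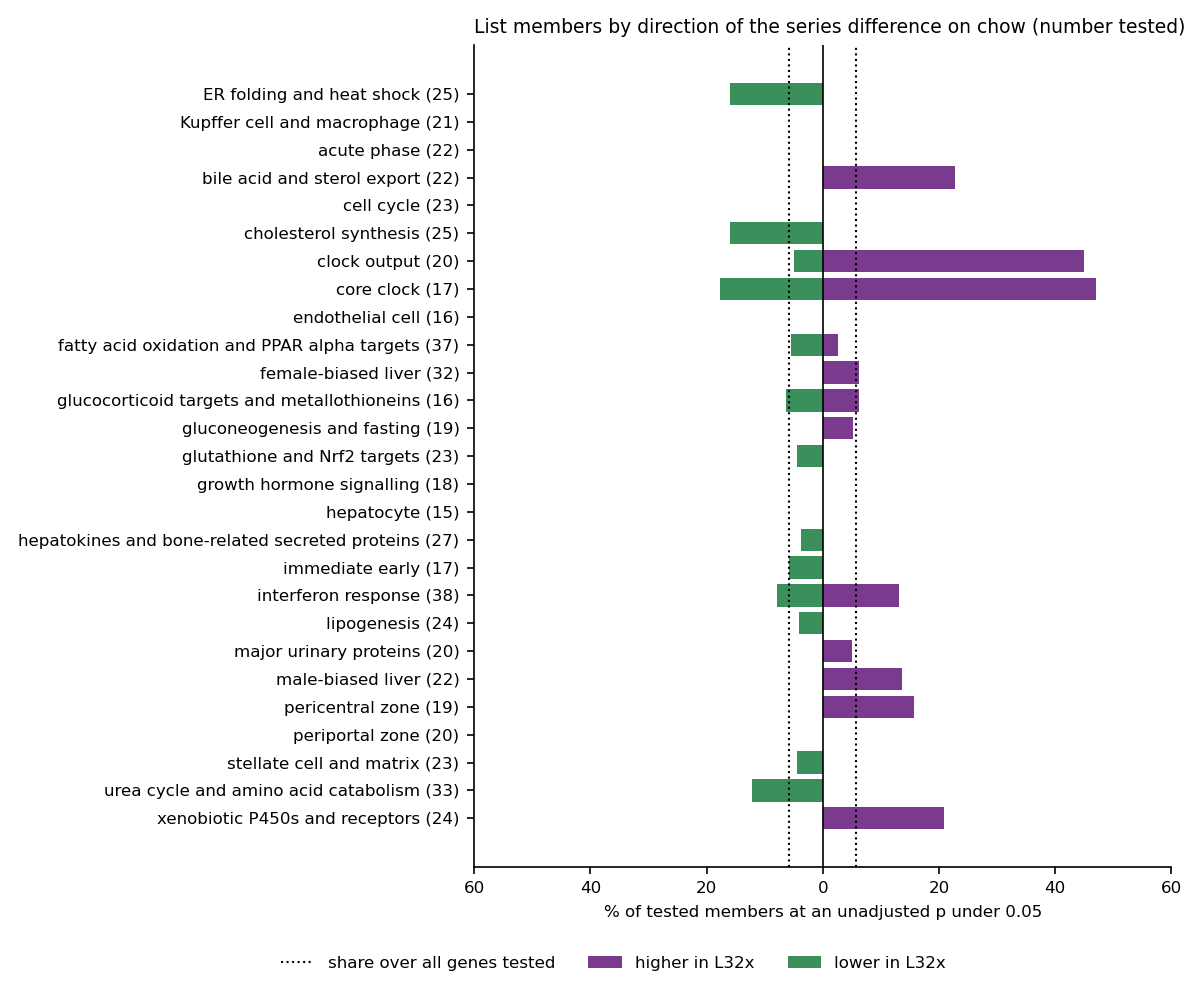
Share of the tested members of each gene list with 15 or more tested genes that lay at an unadjusted p under 0.05, to the right for genes higher in L32x and to the left for genes lower, with the number tested after each name. Dotted lines mark 5.75% and 5.89% over all genes tested. The core clock and clock output lists reach furthest to the right, with 8 of 17 and 9 of 20.

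Immune genes went in both directions. Of 38 interferon response genes, 5 were higher and 3 lower, against 5.75% and 5.89% over all genes, with a median of 0.16. The lower ones were Oasl1, at 3.73, 8.35 and 6.72 in L31x and 2.34, 4.4, 4.3, 2.39 and 1.57 in L32x, Isg15, at 16.99, 18.7 and 19.5 in L31x and 9.7, 11.8, 9.41, 12.9 and 12.8 in L32x, and Stat2, the transducer of type I interferon, at 64.9 to 88.7 and 47.97 to 73.7. Isg15, a ubiquitin-like modifier, had no overlap and a difference of -0.67 ± 0.16 (SE, unadjusted p = 0.000988, adjusted p = 0.181), and Oasl1 differed by -1.04 ± 0.21 (SE, unadjusted p = 0.000305, adjusted p = 0.163) and Stat2 by -0.49 ± 0.15. The GTPase gene Iigp1 was among the 5 higher, at 138, 121 and 119.6 in L31x and 197, 173, 116, 209 and 185 in L32x, a difference of 0.50 ± 0.16 (SE, unadjusted p = 0.00849, adjusted p = 0.274). L326 was low in it. Without that library 15 of the 38 genes were higher, without L316 or L324 2, and without L328 1. Over all 12704 genes the higher counts were 774 without L326, 556 without L316, 618 without L324 and 618 without L328.

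The lists for cell types held few or no members under 0.05, where 5.75% of all genes were higher and 5.89% lower. None was found among 11 neutrophil, 22 acute phase, 21 Kupffer cell and macrophage, 12 MHC class II and B cell or dendritic cell, 7 T and NK cell, 16 endothelial, 23 cell cycle, 15 hepatocyte, 8 gallbladder and bile duct, 4 pancreas and 2 skeletal muscle genes tested, nor among 2 Y-linked genes. These counts changed with L315 and L325. Without L315, 10 of the 21 Kupffer cell and macrophage genes, 7 of the 12 MHC class II genes, 2 of the 7 T and NK cell genes and 3 of the 16 endothelial genes were higher in L32x, and without both libraries 12, 7, 4 and 4 were. Without L326, 6 of the 12 MHC class II genes were higher. Without L325, 8 of the 11 neutrophil genes were lower. Over all 12704 genes, 585 were higher without L315, 893 without L315 and L325 and 774 without L326, and 986 were lower without L325. Without L315 the difference comes from the controls alone. The SE was wide where L315 and L325 stood apart. The neutrophil median was -1.27, S100a8 differed by -1.69 ± 1.43, and Lcn2, an iron-binding acute phase protein, was 18.2, 580.3 and 34.9 in L31x and 12.4, 4677, 25.4, 40.9 and 29.4 in L32x and differed by -0.97 ± 1.45. The members of smallest p elsewhere were Ciita, at 0.64 (unadjusted p = 0.0634), Cd68, at 0.60 (unadjusted p = 0.107), Cd3e, at 0.59 (unadjusted p = 0.189), Egfl7, at -0.31 (unadjusted p = 0.0629), Sox9, at -0.38 (unadjusted p = 0.114), and Zg16, at -0.32 (unadjusted p = 0.202). A few members were under 0.05 in the stellate cell and matrix list (23 genes, Acta2 at -0.44 (unadjusted p = 0.0337)), the red blood cell list (9 genes, Fech at 0.26 (unadjusted p = 0.013) and Tfrc at -0.73 (unadjusted p = 0.0141)) and the adipose tissue list (5 genes, Pnpla2 at 0.38 (unadjusted p = 0.0167) and Fabp4 at -0.36 (unadjusted p = 0.0387)).

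Of 17 immediate early genes, 0 were higher and 1 lower, where 5.89% of all genes were lower. Fos was 0.935, 9.83 and 3.25 in L31x and 1.19, 0.994, 0.43, 0.894 and 1.18 in L32x, a difference of -1.35 ± 0.47 (SE, unadjusted p = 0.0125, adjusted p = 0.287) that stood on L315. Myc, Btg2 and Egr1 followed at 0.53 (unadjusted p = 0.0893), -0.40 (unadjusted p = 0.187) and 1.0 (unadjusted p = 0.229).

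Esr1, floxed in every mouse and targeted by the Cre in the hypothalamus, was 10.99, 19.6 and 12.2 in L314, L315 and L316 and 7.59, 16.95, 9.98, 8.02 and 15.9 in L324 to L328. The series overlapped widely, and the difference was -0.36 ± 0.32 (SE, unadjusted p = 0.282, adjusted p = 0.721), exact permutation p = 0.417. It gives no check of the genotype labels, since Nkx2-1 drives the Cre outside the liver. Fst, the activin-binding protein follistatin, was 5.61, 13.2 and 14.2 in L314, L315 and L316 and 6.02, 7.62, 3.29, 2.97 and 2.4 in L324 to L328. L314 lay with the L32x values and L325 above it, so the series overlapped, and the difference was -1.21 ± 0.43 (SE, unadjusted p = 0.0145, adjusted p = 0.293), -1.04 in controls and -1.43 in mutants. It was the 1 gene of 27 hepatokines and bone-related secreted proteins at an unadjusted p under 0.05, where 5.89% of all genes were lower. Without L315 2 of the 27 were higher and 0 lower, where 585 of all 12704 genes were higher and 536 lower. The unadjusted p of Fst was no longer under 0.05 without L315, L316 or L328, with the difference still below 0 in each case. Of 10 genes for the oestrogen receptor and its reported targets, 0 were under 0.05.

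Whether the series difference depended on genotype was tested by an interaction term, in which the mutant side rests on L315 alone. At an adjusted p under 0.05 0 genes differed (smallest 0.623), and 650 (5.12%) did at an unadjusted p. Leaving out L325, the other library with high neutrophil markers, turned this into 177 genes at the adjusted threshold and 1573 at the unadjusted one, and 12 of the 177 had a positive coefficient. The fatty acid hydroxylase gene Cyp4a14 and the neutrophil granule gene Pglyrp1 are examples, chosen after their values were seen. Cyp4a14 was 608, 5.97 and 341.96 in L31x and 431, 1.61, 299, 280.4 and 208 in L32x, with L315 and L325 far below the other 6 libraries. Pglyrp1 was 0.943, 39.2 and 0 in L31x and 1.32, 92.5, 1.95, 1.96 and 1.68 in L32x, with the same 2 libraries above the rest. Without L325, their interaction coefficients were 5.99 (adjusted p = 0.00578) and -4.61 (adjusted p = 0.00578). L315 and L325, one in each series, depart the same way in both genes.

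On HFD the titles also fall into series, L231 to L234 against L338 to L342, and that contrast shares no library with the chow contrast. Across the 12704 genes, the HFD difference (L33x and L34x minus L23x) and the chow difference had Pearson r = 0.304 and Spearman rho = 0.326, and 0.241 and 0.233 after GC and length trends were removed. These are correlations across genes, which are not independent, and the GC gradient of libraries ran the same way on both diets, from 0.278 to 0.314 in L23x and from -0.343 to -0.113 in L33x and L34x. Manf was 138, 203, 171 and 126 in L231 to L234 and 75.3, 48.9, 70.7 and 61.2 in L338, L339, L341 and L342, and Creld2 26.1, 44.4, 36.4 and 26.8 in L231 to L234 and 17.4, 12.5, 12.7 and 11.6 in L338, L339, L341 and L342. In both, the lower-numbered HFD libraries, 3 of them controls, were all above the higher-numbered ones, 3 of them mutants. The HFD differences, fitted with genotype as a term but with a single library of one genotype in each series, were -1.25 and -1.18. Pnkd was 83.3, 93.6, 86.4 and 85.7 in L231 to L234 and 49.2, 49.1, 53.8 and 49.4 in L338, L339, L341 and L342, and Tfpt 13.97, 11.6, 12.1 and 10.5 in L231 to L234 and 5.71, 6.15, 7.63 and 5.38 in L338, L339, L341 and L342, again without overlap and at -0.77 and -0.98. Hdhd3 ran the other way, at 40.2, 53.1, 26.5 and 33.4 in L231 to L234 and 58.9, 56.8, 85.7 and 50.9 in L338, L339, L341 and L342, a difference of 0.59 with overlap, and Rab36 was level at 6.58, 5.81, 4.52 and 4.53 in L231 to L234 and 5.79, 4.59, 6.33 and 4.69 in L338, L339, L341 and L342, a difference of -0.14. Of the rule's 11 genes, Ttc23, Il1rn, Hdhd3 and Apol7b had HFD differences of the opposite sign to chow, at -0.22, -0.17, 0.59 and 0.11. Dbp, the output gene with the largest chow difference, was 0.01 on HFD. The clock lists as a whole had HFD medians of 0.22 (core) and 0.50 (output), against 0.45 and 0.55 on chow. Over all genes the HFD median was 0.04.

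**Figure D5:**
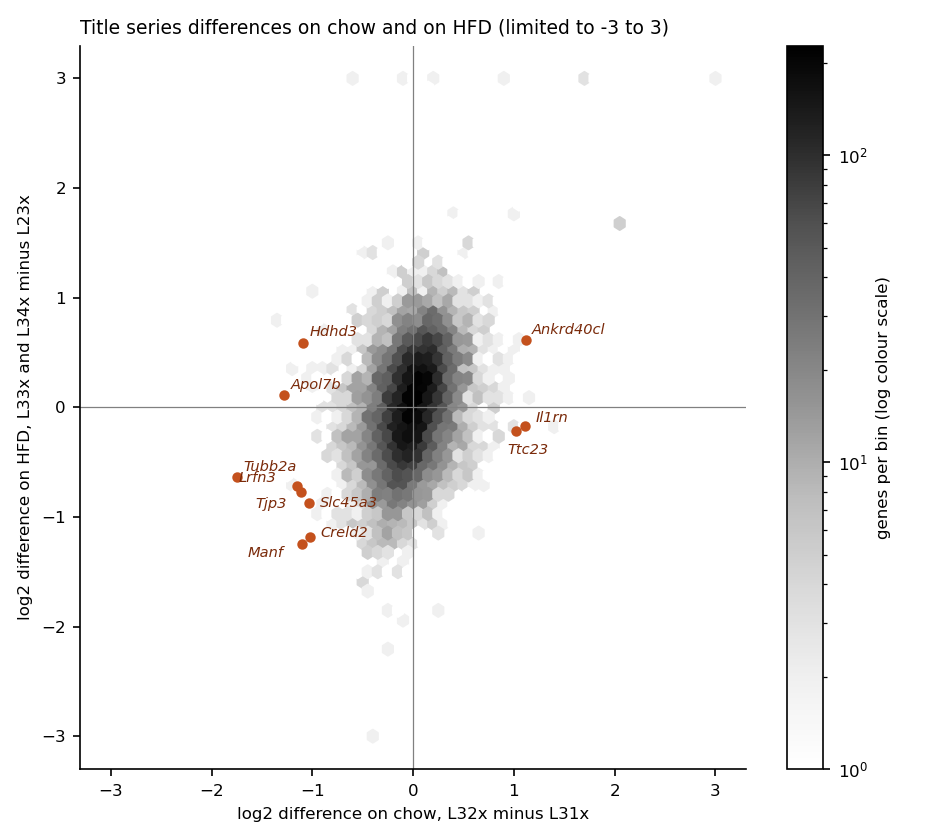
Log2 difference between title series on chow (x axis) against that on HFD (y axis) for 12704 genes, as a density of genes per hexagon, with values beyond -3 or 3 placed at the edge. Orange points are the 11 genes named by the rule. The cloud leans along the diagonal (Pearson r = 0.304), Manf and Creld2 lie low on both axes, and Hdhd3 and Ankrd40cl lie above 0 on HFD.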

How the data were processed

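Liver RNA of female mice was sequenced in bulk, in 4 groups of 4 libraries (16 in all). Per the labels and the study's methods, the authors assigned reads to mm10 transcripts with kallisto in gene mode and tested genes with sleuth, with no versions stated. Each deposited value is a gene-level signal, taken here to be TPM that the authors rescaled by size factors. The unit was read from the data, since values are not whole and the 8 chow columns total 905897 to 1059978. Reads shared by genes of almost the same sequence, pseudogenes included, make those genes' values uncertain. TPM keep no depth, so the depth per library is unknown, no counting interval was computed, and the precision of each value is the spread between libraries. Columns of values with no sample numbered 0.

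Log2(value + 1) was fitted with limma 3.58.1 in R 4.3.3: 4 group means, a chow series term and an HFD series term, with a variance trend on the mean, 10 residual degrees of freedom, and Benjamini-Hochberg adjustment over 12704 genes at 0.05. The fit had been foreseen for normalised values, and the count model foreseen for counts was not applicable. It was tested on simulated data. The 8 chow libraries alone leave 5 residual degrees of freedom and give the same differences. Single values were tested by exact permutation within genotype (24 arrangements). Gene lists (37) are described by counts and medians, with no set test.

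The genes named are Esr1 and Fst, up to 8 genes in each direction of smallest p among those with a log2 difference of at least 1 and no overlap (predicted genes and pseudogenes passed over, 3 and 8 found), and up to 4 members of each list by smallest p, where lists with few or no members at an unadjusted p under 0.05 are given by their first members only. No interaction gene passed the threshold, so that part of the rule names none. Any other gene was chosen after its values were seen. The members and lists were chosen with earlier results of these data known. Positions are from GENCODE M21 (GRCm38) and upstream sequences from RefSeq (GRCm38.p6). GC content and length were available for 12696 of the tested genes. Alternatives covered scaling, filters, pseudocount, library weights, variance prior, the genotype term and each library left out. The removal of GC and length trends, and of L315 and L325 together, was added after the data were seen. Some genes are not reported here.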

Additional observations from a re-analysis of the deposited data

Results flagged for a closer look

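In groups of 4 or 5 libraries, the named genes were searched for a highest or lowest library whose gap to its neighbour took a larger share of the group's range on the log2 scale than Dixon's 95% critical value. Of 300 such groups 19 stood out (6.3%), where chance gives about 1 in 20. Each ratio below is that gap over the range, after the value in adjusted TPM.

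Within L32x, L325 was the library that stood out most often. It was highest for Lcn2 (4677 adjusted TPM, ratio 0.805), Nags (55.6, ratio 0.863) and Stat2 (73.7, ratio 0.741). It was lowest for Zg16 (31.6, ratio 0.893), Trib3 (3.56, ratio 0.753), Abcg8 (34.2, ratio 0.751) and Tef (70.5, ratio 0.717). Among the mutants Zg16 in L325 had a ratio of 0.907. L326 was lowest of L32x for the T cell receptor gene Cd3e (0.429, ratio 0.79) and highest for Egfl7 (41.5, ratio 0.733), and L328 was lowest for Vnn1 (26.95, ratio 0.726).

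Among the controls, L316 was lowest for Abcg8 (20.1, ratio 0.951) and highest for Srxn1 (27.5, ratio 0.888) and Fos (3.25, ratio 0.84). L324 was highest for Cyp2c38 (177, ratio 0.887) and lowest for S100a8 (0.726, ratio 0.863). L314 was lowest for the Nnt entry ENSMUSG00000116207 (0.0125, ratio 0.897). Among the mutants, L315 was highest for Fos (9.83, ratio 0.836), and L326 was lowest for Plin5 (15.5, ratio 0.848).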

How the results depend on the processing

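No paired analysis was possible because the labels give no replicate numbers. The count of genes at the adjusted threshold was 0 under every alternative but 3. It was 2 with no filter on low values (Tmem139 and Gm5096, both lower), and ran from 0 to 2 when single libraries were left out: 2 without L316 (Tfpt lower, Ptges3-ps higher) and 1 without L325. Requiring a log2 difference of 1 as well gave 0. Unadjusted counts ran from 1119 to 1937, and the higher share of them from 29.3% (equal column totals, 457 higher and 1103 lower) to 55.8% (without L315 and L325). For the interaction, the adjusted count was 5 with no filter and ran from 0 to 177 when single libraries were left out, and the unadjusted count was 366 with the 8 chow libraries alone, 1442 with library weights and ran from 490 to 1573 over left-out libraries. It could not be fitted without L315. The named genes kept both direction and side of the adjusted threshold in 1885 planned values, and passed the threshold in the same direction in 2. With 0 genes past the threshold in the main fit and at most 2 in any alternative, the side could hardly change. The fits with a library left out also share most of their libraries. Direction reversed in 3: Btg2 at 0.01 with controls only and without L315 (range over left-out libraries -0.59 to 0.01), and S100a8 at 0.05 with no genotype term. Btg2 was also 0.01 without L315 and L325. List medians moved beyond their spread in 5 lists. Controls alone, leaving out L315, and leaving out L315 and L325 together gave 0.95 for T and NK cell, 0.26 for endothelial, -0.24 for red blood cell and -0.11 for hepatocyte genes. Library weights gave -0.26 for red blood cell genes and no genotype term -0.40 for adipose genes. Over left-out libraries these medians ran from -0.12 to 0.95, -0.10 to 0.26, -0.24 to 0.53, -0.11 to 0.08 and, for adipose genes, -0.32 to 0.08. The cause of these shifts was not tested. Unknown depth limits low genes such as Ankrd40cl.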

Other observations

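A few entries were near 0 in some libraries and high in others, and are given as values, chosen after they were seen. The Nnt entry ENSMUSG00000116207, one of 2 entries for the mitochondrial transhydrogenase gene on chromosome 13, was 0.0125, 4.19 and 16.03 adjusted TPM in L314, L315 and L316 and 14.9, 20.8, 17.2, 22.9 and 11.7 in L324 to L328. The processed pseudogene Ptges3-ps was 9.98e-06 in L314, 1.17 in L315, 20.4 in L316 and 15.2, 25.7, 18.2, 15.9 and 9.05 in L324 to L328, listed at 0 in L231 to L234, and 18.5, 35.8, 24.9 and 26.8 in L338, L339, L341 and L342. The pseudogene Gm10925 on chromosome 1 was 50.5, 256 and 952 in L31x and 5099.7, 3676, 6336, 1657 and 3555 in L32x, and 4.51 to 78.7 in L231 to L234 against 709 to 5457 in the other HFD libraries. The Nnt entry overlaps the other Nnt entry and pseudogenes resemble the genes they derive from, so reads can be divided between copies and these values are uncertain.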
